A study of Rattus norvegicus with 4 samples.

Results

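The probes of 3 rat genes of arachidonic acid metabolism, 5 in all, are described here: 3 probes of Cyp2c23, 1 of Cyp4f1 and 1 of Ephx2, of 1936 probes on the array. They are all the probes whose annotation gives exactly 1 of these symbols. The genes were chosen with their difference between ligated and sham livers known, so those differences are given as a description without p-values. Where a fit across all probes called one of them, the call is reported as a count and is no independent evidence for these genes.

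Liver mRNA of male Sprague-Dawley rats (250 to 300 g) was measured at 1 h after the common bile duct was tied, or after a sham operation that laid the duct bare without tying it. Both operations were done under ether. RNA of rats killed in groups of 3 was pooled, and each of 4 two-colour cDNA arrays set a ligated pool against a sham pool. Arrays 1 and 3 had the ligated pool in Cy5 and the sham pool in Cy3, and arrays 2 and 4 had the dyes swapped. The comparison asks how liver mRNA differs in the first hour of blocked bile flow. The labels do not say whether the arrays shared RNA, so the spread between them may be technical. Because the liver was not sorted into cell types, fewer cells of a type and less RNA per cell cannot be told apart.

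Arachidonic acid is a fatty acid stored in membrane phospholipids and oxidised by cytochrome P450 enzymes after its release. Epoxygenases add an oxygen across a double bond and give epoxyeicosatrienoic acids, lipid signals known for widening vessels and for damping inflammation. Omega-hydroxylases instead put a hydroxyl group on the end of the chain, and the soluble epoxide hydrolase opens the epoxides to diols, which ends much of their signalling. Hepatocytes are rich in all 3 kinds of enzyme. Cyp2c23 encodes an arachidonic acid epoxygenase best known from rat kidney and also present in liver. Cyp4f1 encodes an omega-hydroxylase of liver that acts on arachidonic acid and leukotriene B4, and Ephx2 encodes the soluble epoxide hydrolase.

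The DNA upstream of the P450 genes is shown because the differences below are in mRNA. The estimate of Cyp4f1 was negative, whereas those of the Cyp2c23 probes differed in sign among themselves. No contrast in sign between these genes is therefore read. Of the 3 genes, 2 matched the RefSeq promoter table (GRCr8), all but Ephx2. The 250 bases before the annotated start are given 5′ to 3′ on the strand of the gene, which is the minus strand for both, at chr1:252863068-252863317 for Cyp2c23 and chr7:12672554-12672803 for Cyp4f1. Capitals mark a match to any motif searched:
Cyp2c23: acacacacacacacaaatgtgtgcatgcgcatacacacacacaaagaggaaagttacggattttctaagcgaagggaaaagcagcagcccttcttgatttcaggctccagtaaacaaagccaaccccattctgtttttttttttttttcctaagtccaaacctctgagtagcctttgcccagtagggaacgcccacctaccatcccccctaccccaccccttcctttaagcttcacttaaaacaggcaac
Cyp4f1: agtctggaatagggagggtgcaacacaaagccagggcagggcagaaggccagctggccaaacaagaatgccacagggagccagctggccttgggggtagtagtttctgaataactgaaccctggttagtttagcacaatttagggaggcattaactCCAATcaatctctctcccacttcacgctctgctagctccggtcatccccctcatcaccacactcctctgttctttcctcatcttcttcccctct
Searched on both strands were the hexamer AGGTCA read by many nuclear receptors, TATAAA and CCAAT, which do not overlap. The match found was CCAAT, which starts 94 bases before the Cyp4f1 start and is also held by 34.0% of the 33469 windows of this length in the table. The hexamer is in 14.1% of those windows, and TATAAA in 12.9%, and the letters of neither are in the Cyp2c23 or Cyp4f1 window.

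The deposited values are log ratios of an unstated base, read here as ligated over sham. The labels list sham as the first channel and ligated as the second but not which was divided by which, so if the ratio ran the other way every sign below would turn. The values also followed the dye: the array medians were -0.88, 0.75, -0.73 and 0.87 on arrays 1 to 4, and Pearson's r across probes was between -0.93 and -0.77 for arrays of opposite orientation and 0.86 and 0.94 for arrays of the same orientation. Each array was therefore centred on its median, and a model with an operation term and a dye term was fitted to every probe (limma). An estimate is the operation term with its standard error (SE, n = 4 arrays), and a probe is called when its Benjamini-Hochberg adjusted p is at most 0.05. A ratio gives no level of expression, so the liver label could not be checked by which markers are present.

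The omega-hydroxylase and the epoxide hydrolase had nearly equal values, both lower in ligated livers, while the epoxygenase probes lay on both sides of 0. The estimates were -0.31 ± 0.09 for Cyp4f1 and -0.30 ± 0.08 for Ephx2. For Cyp2c23 they were -0.11 ± 0.08, -0.09 ± 0.08 and 0.22 ± 0.08 at probes 374, 766 and 1344. Of the 5 probes, 2 were called lower (Cyp4f1 and Ephx2) and 0 higher. Among all probes 5.73% were called, 93 lower (4.80%) and 18 higher (0.930%). Since the genes were chosen on this contrast, nothing is read from that share.

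Ephx2, the hydrolase, had deposited values of -0.26, -0.51, -0.25 and -0.18 on arrays 1 to 4. Cyp4f1, the omega-hydroxylase, had -0.10, -0.62, -0.29 and -0.18. Both genes were thus below 0 on every array in either dye orientation, and both were lowest on array 2. A deposited value below 0 on all 4 arrays was found for 115 of the 1936 probes (5.94%). Whether a probe reaches this depends also on its dye effect, since the array medians had opposite signs in the dye orientations. Because the dyes were balanced, the estimate is close to the plain mean of these values, which was -0.30 for both genes. As a fold the estimate is 0.809 for both if the base is 2, 0.737 if it is e and 0.495 if it is 10.

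**Figure D1:**
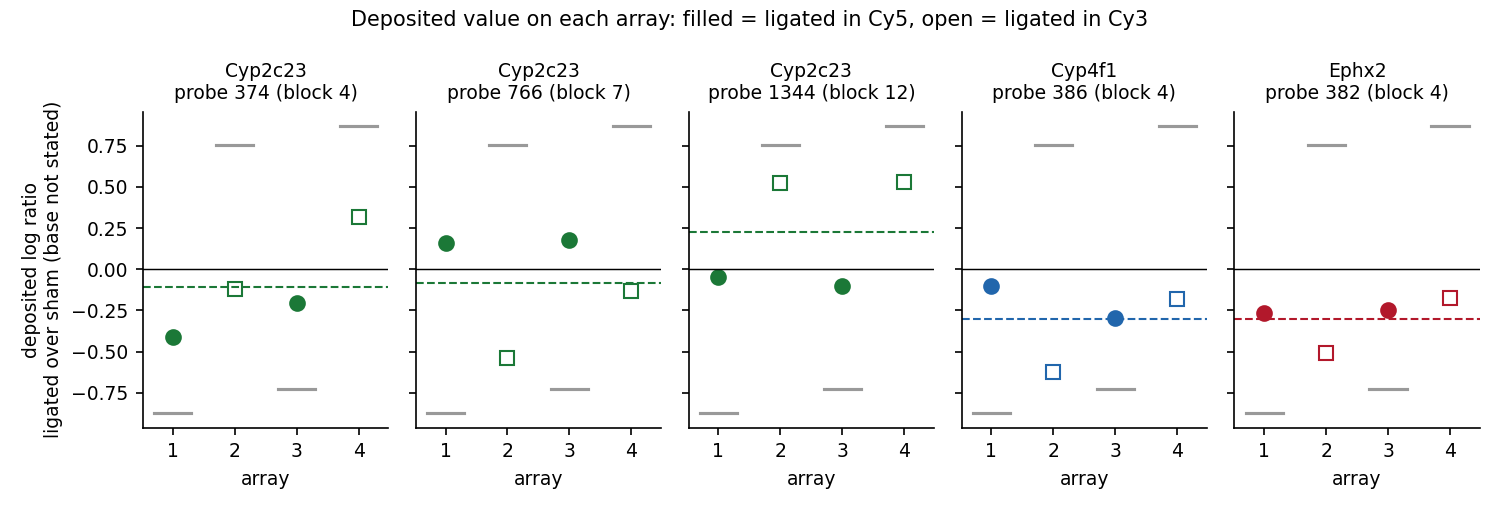
Deposited log ratio (ligated over sham, base not stated) of each probe on arrays 1 to 4; filled circles are arrays with the ligated pool in Cy5, open squares those with it in Cy3, grey bars the array medians and dashed lines the mean over the 4 arrays. Cyp4f1 and Ephx2 are below 0 on all 4 arrays, whereas each Cyp2c23 probe has values on both sides of 0.

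After centring, the sign followed the dye for all 5 probes. Ephx2 had centred values of 0.61, -1.26, 0.48 and -1.05, and Cyp4f1 had 0.77, -1.38, 0.43 and -1.05. The estimate is the remainder after these opposite values are balanced: the mean over the Cy5-ligated arrays was 0.55 for Ephx2 and 0.60 for Cyp4f1, against -1.16 and -1.21 over the Cy3-ligated arrays. The dye term was correspondingly large, at 0.85 for Ephx2, 0.91 for Cyp4f1, and 0.60, 1.06 and 0.51 for Cyp2c23 probes 374, 766 and 1344. Each probe's dye term thus exceeded the size of its operation term. Read as Cy5 over Cy3, the centred estimates of the 5 probes become these dye terms, all above 0.

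The 3 Cyp2c23 probes disagreed with each other. Probe 374 had deposited values of -0.41, -0.12, -0.20 and 0.32 on arrays 1 to 4, below 0 on 3 of them. Probe 766 had 0.16, -0.54, 0.18 and -0.13, above 0 where the ligated pool carried Cy5 and below 0 where it carried Cy3. Probe 1344 had -0.05, 0.53, -0.10 and 0.53, the opposite pattern. The values of probe 1344 on the Cy3-ligated arrays lay above those of the other Cyp2c23 probes, and on the Cy5-ligated arrays they lay between them. Only 24 of the 1936 probes had a higher estimate than probe 1344, whereas 409 and 498 had a lower one than probes 374 and 766. With the probes averaged the gene had an estimate of 0.01 ± 0.07, a mean that no single probe showed. The annotation gives all 3 probes the same gene, and their sequences were not analysed here, so which part of the transcript each one reads is not known.

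**Figure D2:**
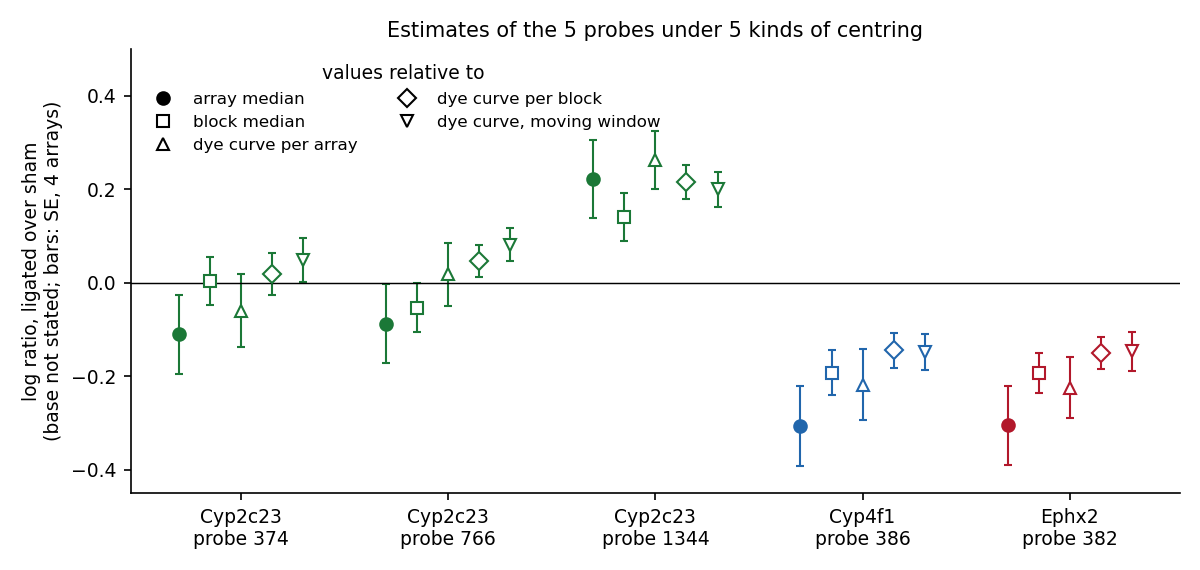
Estimate of each probe (log ratio, base not stated; bars are SE over 4 arrays) relative to the array median, the block median, or a dye curve fitted per array, per block or over a moving window. Cyp2c23 probe 1344 is above 0 and Cyp4f1 and Ephx2 are below 0 in all 5, while Cyp2c23 probes 374 and 766 lie between -0.11 and 0.08.

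Position on the array has to be set beside these values. The probe numbers divide into 16 runs of equal length, here called blocks, and Cyp2c23 probe 374, Ephx2 probe 382 and Cyp4f1 probe 386 stand within 12 numbers of each other in block 4. The median estimate of block 4 was -0.14, and its median centred value was -0.33 on array 2, the array on which Ephx2 and Cyp4f1 were lowest. The block held 11 of the 93 lower calls, or 9.09% of its probes, and 0 higher calls. Within the block, 4 probes had a lower estimate than Cyp4f1, 5 had a lower one than Ephx2 and 76 had a lower one than Cyp2c23 probe 374.

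Cyp4f1 and Ephx2 remained below 0, but closer to it, when position and dye effect were taken into account together. Subtracting from each array a smooth curve of value on dye effect, fitted within each block, left -0.15 ± 0.03 for Ephx2 and -0.14 ± 0.04 for Cyp4f1, or folds of 0.901 and 0.905 if the base is 2. Cyp2c23 moved up, to 0.02 ± 0.05 at probe 374 and 0.05 ± 0.03 at probe 766, and stayed at 0.22 ± 0.04 at probe 1344. After this curve 2 of the 5 probes were called lower, Ephx2 and Cyp4f1, and 1 higher, Cyp2c23 probe 1344, where 6.46% of all probes were called, 3.41% lower and 3.05% higher. A curve fitted over the 81 nearest probe numbers, chosen after seeing the data, gave nearly the same values for Ephx2 (-0.15 ± 0.04) and Cyp4f1 (-0.15 ± 0.04), but neither was called, while probe 1344 (0.20 ± 0.04) was. Cyp2c23 probes 374 and 766 then had 0.05 ± 0.05 and 0.08 ± 0.04. The dye curve fitted per array, without blocks, left -0.22 for both Cyp4f1 and Ephx2, and block medians alone left -0.19 for both. For Cyp2c23 probe 1344 the per-array curve left 0.26 and block medians alone left 0.14. That probe is in block 12, which had a median estimate of 0.04. The part of spot position in the remaining difference was not tested, nor was its share of the change apart from the dye.

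**Figure D3:**
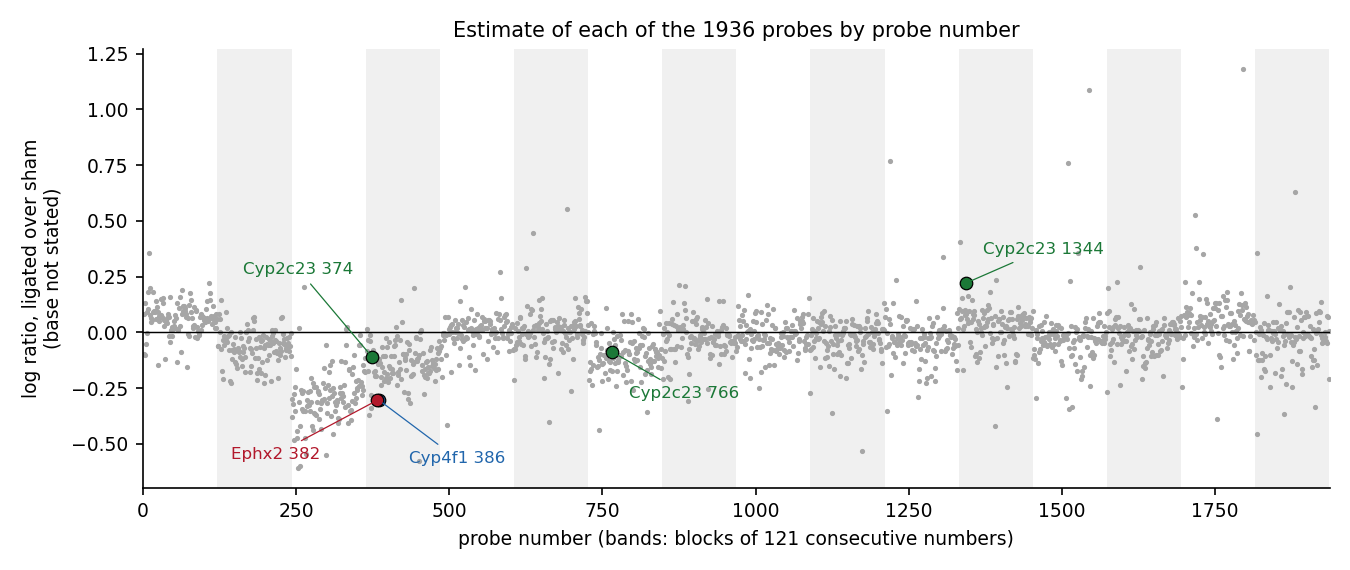
Estimate (log ratio, ligated over sham, base not stated) of each of the 1936 probes against probe number; shaded and white bands are the 16 blocks and coloured points are the 5 probes. Block 3 and block 4 lie lower than the other blocks (medians of -0.29 and -0.14), and Ephx2, Cyp4f1 and Cyp2c23 probe 374 are in block 4.

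Leaving out single arrays kept the direction of Cyp4f1 and Ephx2 but not their calls. Without array 1, 2 or 3 neither gene was called. Cyp4f1 then had -0.39, -0.22 and -0.22, and Ephx2 had -0.34, -0.25 and -0.27. Without array 4 both were called, at -0.39 for Cyp4f1 and -0.36 for Ephx2. Cyp2c23 probe 1344 stayed between 0.17 and 0.27 and, of these 4 fits, was called in that without array 4 (0.25). Over all 1936 probes, 24, 48 and 12 were called without array 1, 2 and 3, and 241 without array 4. Every probe described here had the same SE within a fit, 0.144 without array 1 or 3 and 0.086 without array 2 or 4. The gain or loss of these calls therefore also follows the spread common to the array. Without centring the estimates of Cyp4f1 and Ephx2 were both -0.30 and neither was called, with a limma prior of 2.60 degrees of freedom in place of 76.2. With the larger prior, the SE of a probe owes more to the common spread of the array than to its own 4 values.

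Other genes of the pathway were read from a list of 90 genes, of which 28 were measured, 25 besides the 3 described above. With probes averaged per gene, 2 passed, both lower and both among the 3 (Cyp4f1 and Ephx2), and 0 of the other 25 passed in limma, 5 of them with an unadjusted p under 0.05. Of all 958 genes 4.18% passed, 28 lower (2.92%) and 12 higher, and 145 had an unadjusted p under 0.05. The median estimate of the 25 was -0.06, beside -0.02 over all genes, and 21 of the 25 were below 0, as were 597 of all 958. After the dye curve per block 1 of the 25 passed as higher and 2 as lower (6.37% of all genes passed then), and the median was -0.02.

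Of the 7 probes of other Cyp4f genes, 5 had estimates below 0, and 1 of the 7 was called, lower. Among all 1936 probes, 1167 had estimates below 0 and 93 (4.80%) were called lower. Cyp4f4, an omega-hydroxylase of the same subfamily, had -0.22 ± 0.08 at probe 750 (limma adjusted p = 0.133) and -0.11 ± 0.08 at probe 642 (0.728). The deposited values at probe 750 were -0.25, -0.38, -0.21 and -0.02, below 0 on all 4 arrays as for Cyp4f1. This probe is in block 7, which had a median estimate of -0.10. With the block curve subtracted it had -0.11 ± 0.03 (limma adjusted p = 0.0862). Cyp4f6 had 4 probes that disagreed. Probe 436, in block 4, fell by 0.32 ± 0.08 (adjusted p = 0.00904), and with the block curve subtracted it fell by 0.15 ± 0.04 (adjusted p = 0.0414). Probe 198, in block 2, had -0.23 ± 0.08 (adjusted p = 0.105) with deposited values of -0.21, -0.33, -0.16 and -0.18. With the block curve subtracted, probe 198 had -0.12 ± 0.03 (limma adjusted p = 0.0750). The other Cyp4f6 probes, 410 and 1378, had -0.10 ± 0.09 and 0.05 ± 0.08, and Cyp4f17 had 0.01 ± 0.09. Of the 7 probes of Cyp4f4, Cyp4f6 and Cyp4f17, 3 were below 0 on all 4 arrays as deposited, beside 115 of all 1936 probes (5.94%). These 3, probes 198, 436 and 750, had dye terms of 0.84, 0.97 and 0.79, large enough to offset array medians of opposite sign. The share over all probes, whatever their dye term, is therefore no like comparison, and nothing is read from it. Outside the subfamily, Cyp4b1 fell by 0.31 ± 0.09 in block 3 (adjusted p = 0.0243) but had -0.04 ± 0.05 once the block curve was subtracted (adjusted p = 0.744), and the fatty acid omega-hydroxylase Cyp4a8 had -0.04 ± 0.08. The Cyp4f cDNAs are similar in sequence, and how far each probe also reads its relatives was not analysed here.

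The relatives of Cyp2c23 moved in no single direction. Cyp2c22 had estimates above 0 at all 3 probes, in blocks 4, 7 and 12, of 0.15 ± 0.09, 0.11 ± 0.09 and 0.24 ± 0.09, none called (limma adjusted p = 0.499, 0.729 and 0.0991). With the block curve subtracted all 3 rose, by 0.31 ± 0.04, 0.25 ± 0.04 and 0.29 ± 0.04 (adjusted p = 0.00129, 0.00286 and 0.00433). The deposited values of Cyp2c22 probe 1392 were 0.43, 0.25, 0.12 and 0.16, all above 0, whereas probes 421 and 756 were below 0 on array 2 (-0.28 and -0.40) and above 0 on the other arrays. Cyp2c12, a steroid hydroxylase known as female-specific in rat liver, fell at probe 372 in block 4, by 0.34 ± 0.09 before and 0.18 ± 0.04 after subtracting the curve (adjusted p = 0.00562 and 0.0189). Its other 3 probes lay between -0.08 and 0.07 and none was called. The rats were male, and how far the Cyp2c probes also read their relatives was not analysed here. The 4 probes of Cyp2c6v1, a steroid and drug oxidising enzyme, lay between -0.11 and 0.07, with no call.

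Cyp2j3, another P450 that epoxidises arachidonic acid, had -0.27 ± 0.09 at probe 426 in block 4 (limma adjusted p = 0.0443) and -0.18 ± 0.08 at probe 1009 in block 9 (0.307). With probes averaged it did not pass (-0.22 ± 0.07, adjusted p = 0.114), but with the block curve subtracted it fell by 0.13 ± 0.03 (adjusted p = 0.0410). Cyp2j10 had -0.14 ± 0.08 (adjusted p = 0.492). The other gene lower after the curve was Alox15, a lipoxygenase of the same fatty acid (-0.18 ± 0.04, adjusted p = 0.0453, against -0.17 ± 0.08 and 0.322 before it). The 4 measured electron donors of these enzymes (Por, Cyb5a, Cyb5b and Cyb5r3) had gene estimates between -0.13 and -0.05 and none passed. The same held for 2 genes of arachidonic acid release and desaturation and for 3 receptors, which lay between -0.12 and 0.04.

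**Figure D4:**
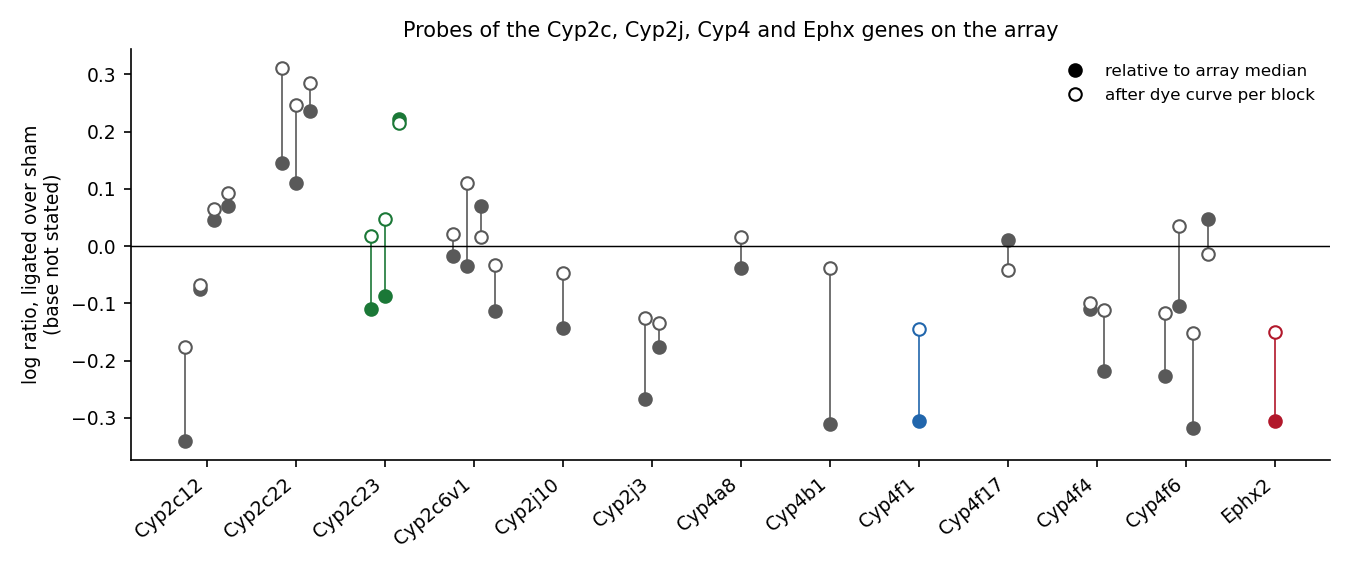
Estimate (log ratio, ligated over sham, base not stated) of each probe of the measured Cyp2c, Cyp2j, Cyp4 and Ephx genes, relative to the array median (filled) and after the dye curve per block (open), with lines joining the values of a probe. The probes of one gene differ by up to 0.41 (Cyp2c12) in the filled points, Cyp2c22 is above 0 at all 3 probes, and Cyp2j3 and Cyp4f4 are below 0 at both of theirs.

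The pattern most like that of Cyp4f1 over the 4 centred arrays was that of Gc, the vitamin D binding protein, at a Euclidean distance of 0.068, followed by C3, a complement component (0.101), and Cyp2c12 probe 372 (0.115), all in block 4. Ephx2 was nearest to Acadl, a mitochondrial acyl-CoA dehydrogenase, in block 7 (0.154), then to Cyp4f1 (0.201) and C3 (0.204). Any 2 probes of the array had a median distance of 1.25, and Cyp4f1 and Ephx2 were the closest pair among the 5 probes. The Cyp2c23 probes were not close to each other, at 0.926 between 374 and 766, 0.779 between 374 and 1344 and 1.30 between 766 and 1344. Nearest to them were Akt2, Hnrnpk and Adgra3 for probe 374 (0.087 to 0.149), Nedd8, Atp5pb and Cilk1 for probe 766 (0.132 to 0.210), and Fosl2, Arf1 and Hnrnpa1 for probe 1344 (0.160 to 0.202). The distance is made over 4 values in which the dye is the largest part.

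Of the hepatocyte markers listed, 5 of 10 were measured, all with gene estimates below 0 (-0.24 to -0.08), as were 597 of all 958 genes. The measured markers of stellate cells and fibroblasts (3 of 8) lay between 0.00 and 0.22, those of endothelium (2 of 6) at -0.18 and -0.12, and the single ones of cholangiocytes, neutrophils and blood at 0.10, 0.08 and -0.08. With probes averaged, 0 of these markers passed in limma. An unadjusted p under 0.05 was found for 1 hepatocyte, 2 stellate and fibroblast and 1 endothelial marker, and for 145 of all 958 genes. Of 8 macrophage and lymphoid markers 0 were measured. Among single probes, Col1a1 probe 1306 rose by 0.34 ± 0.08 (limma adjusted p = 0.00526), and Pf4 probe 292, in block 3, fell by 0.30 ± 0.09 (0.0337), while the other probe of each was not called. With the block curve subtracted, the former stayed called at 0.33 ± 0.06 (limma adjusted p = 0.0121) and the latter did not, at -0.05 ± 0.03 (0.530). With the block curve subtracted and probes averaged, the collagen chain Col1a1 rose by 0.22 ± 0.04 (adjusted p = 0.0118) and the hepatocyte marker Ttr fell by 0.18 ± 0.03 (0.0153). None of the other measured markers passed in that fit, the remaining hepatocyte and stellate markers included, where 6.37% of all genes passed. The part of cell composition in the values of Cyp4f1 and Ephx2 was not tested.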

How the data were processed

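The data are 4 two-colour cDNA arrays of rat liver RNA. The values are a log ratio score of the 2 channels as deposited by the authors. The sources used here state neither its log base nor the scanner, background correction or normalization, so depth and signal cannot be read from the file. Every array holds 1936 values with 0 missing. Labelling and pooling are stated per the labels.

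Gene symbols came from the platform annotation: 1432 probes (958 genes) held 1 symbol, 19 several and 485 none. Of the 1432, 1429 matched a gene ID in a RefSeq table (GRCr8), which changed no symbol given here. No coordinates are given for the probes, since the array names no build. Those of the promoter windows are from the RefSeq promoter table (GRCr8).

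Values were centred per array and fitted in R 4.3.3 by limma 3.58.1 (lmFit, then eBayes), with a dye term and 2 residual degrees of freedom per probe. The dye curve was a loess line (span 0.75, degree 1) of each array's values on the probes' dye effect. Blocks are not marked in the file: their length was chosen on these data, and whether they match printed areas of the slide is not known. The fit was tested on simulated data with a dye effect and an equal spread for all probes but no block effect. That test therefore does not cover position on the array. All 4 arrays are 1 group.

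The probes, lists, named genes and settings were chosen with earlier results of these data known. Named were all probes of the 3 genes, each listed gene past the threshold, all measured Cyp2c, Cyp2j, Cyp4 and Ephx genes, and the 3 nearest single-symbol probes of other genes. Other settings tried were no centring, block medians, equal spread, quantile normalization, 2 other readings of the ratio, no dye term, 3 dye curves, a robust prior, averaged probes and leaving out each array.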

Additional observations from a re-analysis of the deposited data

How the results depend on the processing

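Apart from the readings of the ratio, Cyp4f1 and Ephx2 stayed below 0 in all 14 other settings (-0.39 to -0.14 and -0.36 to -0.15), and were past the threshold in 5 and 6 of them. Cyp2c23 probe 1344 stayed above 0 in all 13 of its settings (0.14 to 0.27) and passed in 3, while probes 374 and 766 were each below 0 in 10 of 13 and never passed. Not all of these settings could move an estimate. Leaving out the dye term or using a robust prior changes only the SE, and averaging probes leaves single-probe genes as they were. For Cyp4f1 and Ephx2, the calls with the robust prior and with averaged probes were thus made at the main estimates. The dye curve per block gave -0.15 for Ephx2, and the curve over a moving window, chosen after seeing the data, gave -0.15 for Ephx2 and 0.081 for Cyp2c23 probe 766. Read as Cy5 over Cy3, Cyp4f1, Ephx2 and Cyp2c23 probes 374, 766 and 1344 had 0.91, 0.85, 0.60, 1.06 and 0.51. Read as sham over ligated they had 0.31, 0.30, 0.11, 0.088 and -0.22. Both follow from how the readings are made.

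The 111 probes past the threshold in limma became 3 without centring, 62 with equal spread, 6 with quantile normalization (189 at unadjusted p under 0.05), 1599 in the Cy5 over Cy3 reading (816 higher and 783 lower), 13 with the dye curve per array, 67 with a robust prior and 40 genes with probes averaged. They became 0 without the dye term (5 at unadjusted p under 0.05), and between 12 and 241 without one replicate. Of the 111, 18 were higher, against 59 of 125 after the dye curve per block and 44 of 97 with the moving window.

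The arachidonic acid list had 2 genes past the threshold, both lower. It had 1 with block medians (lower), 5 with the dye curve per block (4 lower and 1 higher), 1 with the moving window (higher, so that neither lower call was kept) and 24 in the Cy5 over Cy3 reading (19 higher and 5 lower). The count was 0 without centring, with quantile normalization, with the dye curve per array and without the dye term (5, 5, 4 and 0 at unadjusted p under 0.05 in limma), and between 0 and 5 without one replicate: 0 without replicate 1 or 3 and 5, all lower, without replicate 4. The cause of these changes was not tested. The averaged fit gives no value for single Cyp2c23 probes and is itself the list's setting. No paired analysis was possible because all arrays form 1 group, so that no replicate number is shared between groups. Each log ratio already pairs a ligated with a sham pool. The 4 arrays limit the precision.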
